A study of Mus musculus with 30 samples.

Results

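The livers of 12-month-old mice were compared with those of 6-month-old mice over a whole day, to ask which genes and which liver functions differed in their mean daily level. The comparison took 12 of the 30 libraries of the study, chosen by the age and genotype in their labels: 6 libraries of 12-month mice and 6 of 6-month mice, 1 of each age at zeitgeber time (ZT, hours after lights on) 1, 5, 9, 13, 17, and 21. All were male wild-type C57BL/6J mice kept in 12-h light and 12-h dark, and poly(A) RNA of the whole liver was sequenced. Each age and ZT had 1 library, so the 6 time points stood in for replicates, and whether a library held RNA of 1 mouse or of several was not stated. Values of 6 libraries of 2-month wild-type mice from the same time course are given beside some results. A separate cohort, with other animals, gave 8 libraries: wild-type (WT) littermates and liver-specific *Egr-1* knockout (KO) mice, 4 at 6 months and 4 at 12 months, collected at ZT21 and at a time in the light phase. In these KO mice Cre recombinase was driven by the albumin promoter, which is active in hepatocytes, so other liver cells kept the gene, and the line, from strain 129, had been backcrossed to C57BL/6J.

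The liver makes most plasma proteins, stores and exports lipid, clears drugs and toxins, and does each of these on a daily schedule. During inflammation, cytokines such as interleukin-6 drive hepatocytes to secrete acute-phase proteins, and the extra secretory load is met by chaperones of the endoplasmic reticulum (ER). Insulin and feeding drive de novo lipogenesis, the making of fatty acids from sugar, whereas male growth hormone pulses maintain the major urinary proteins and other male-biased liver genes.

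Total counts per library ranged from 13375377 to 15464470 at 6 months and from 13582327 to 16262858 at 12 months. Levels are given in CPM, counts relative to the library total (scaled by TMM factors and set to 1000000), and differences as log2 fold changes of 12 over 6 months with their standard error (SE). Where 3 levels are given for an age, they are those of the lowest, the median, and the highest of its 6 libraries. Hepatocyte markers were abundant at both ages, with median *Alb* levels of 58192 and 78816 CPM, and most of the pancreas and skeletal muscle markers, such as *Pnlip* and *Ckm*, had a median of 0 CPM at both ages. On log2 CPM, the first principal component (35.1% of the variance) placed every 6-month library, from -41.7 to -8.90, apart from every 12-month library, from 14.0 to 32.4. The 6-month libraries of the time course also stood apart from all other libraries of the study used here in their acute-phase transcripts. The summed level of 32 acute-phase genes was 61437 to 174442 CPM in them, against 21646 to 28458 CPM at 2 months, 16982 to 33005 CPM at 12 months, and 19328 to 28332 CPM in the 6-month libraries of the separate cohort. The 6-month library at ZT5 lay farthest out on the first component, and the 12-month library at ZT9 was high in immunoglobulin transcripts.

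Of 13046 genes that passed the filter on low counts, 1379 (10.6%) differed in mean daily level in the quasi-likelihood test of edgeR, in which the 6 ZT formed blocks and the Benjamini-Hochberg adjusted p, taken over all genes tested, had to lie under 0.05. Higher levels at 12 months were found for 718 genes (5.50% of genes tested), and lower levels for 661 (5.07%). Of these, 585 were higher and 589 were lower at all 6 ZT. The ranges of the 2 ages did not overlap in 488 of the 1379 genes, and in 578 of all 13046 genes tested. The median absolute log2 fold change of the 1379 genes was 0.67, and 344 of them differed by more than 2-fold. With library totals alone in place of TMM factors, the share of higher genes among the calls moved from 52.1% to 71.1%. Across all genes tested the median log2 fold change was -0.0012, which is the level to read the medians of the gene groups against. At 12 months, most tested acute-phase, ER chaperone, and major urinary protein genes were lower, whereas most genes of de novo lipogenesis, 16 of 34 of fatty acid oxidation, and 18 of 43 of phase II conjugation were higher. The plot of the gene lists gives the share of each list that passed.

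**Figure D1:**
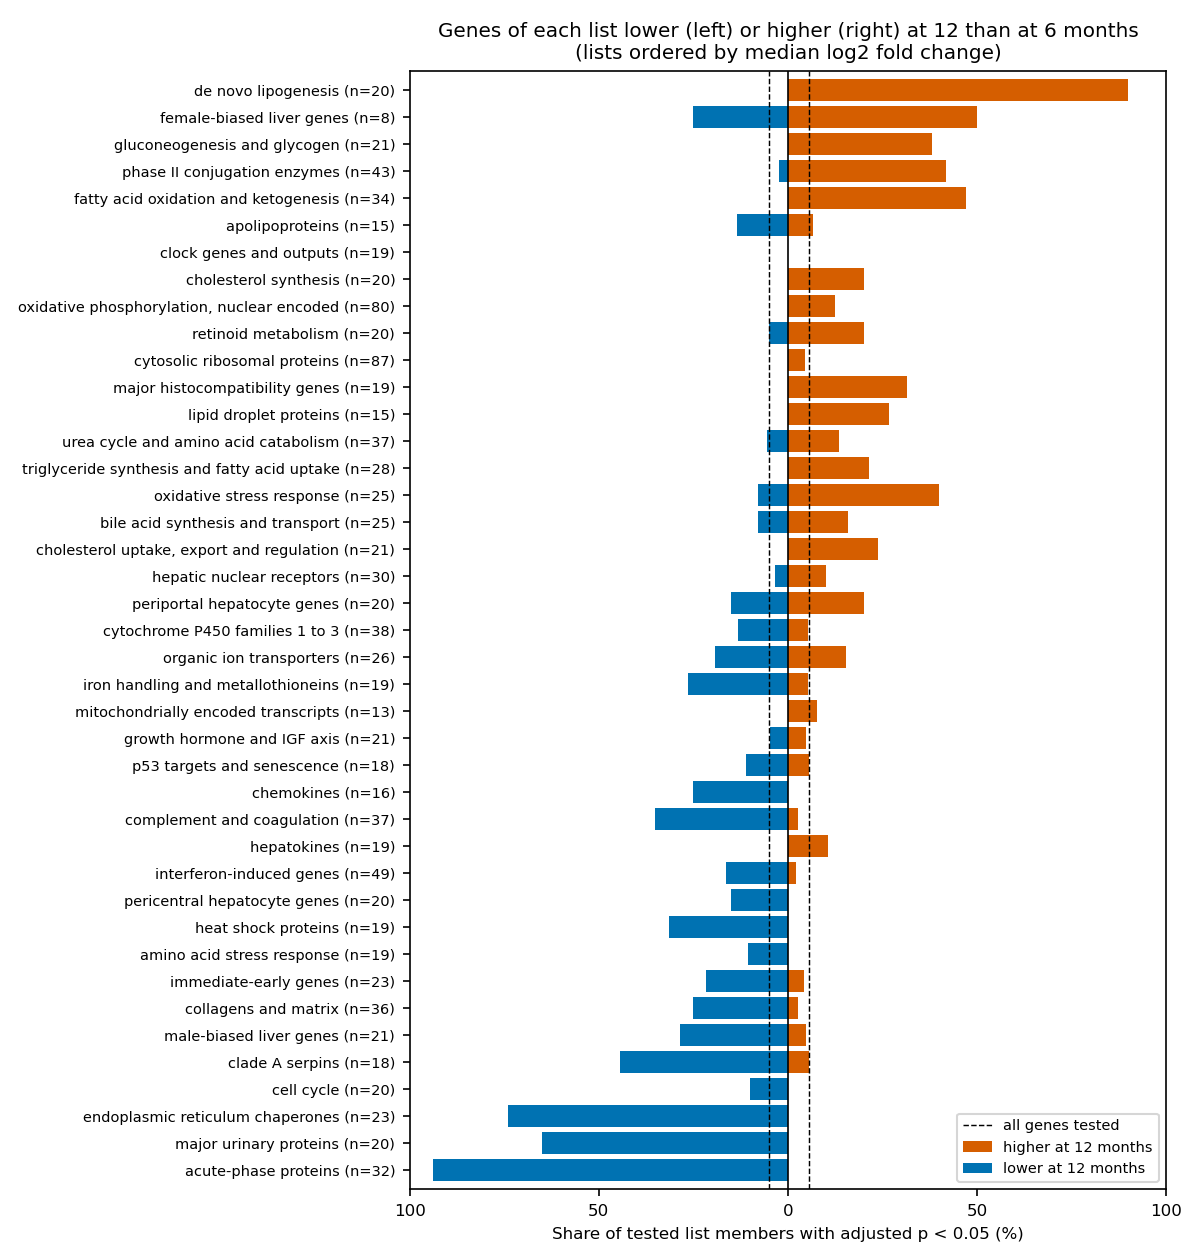
Share of the tested members of each gene list that was higher (right of 0) or lower (left of 0) at 12 than at 6 months, in percent of members, with the number tested beside each name. The acute-phase list had 30 of 32 members lower and the lipogenesis list 18 of 20 members higher, whereas 5.50% of all genes were higher and 5.07% lower.

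Acute-phase proteins made up the list with the largest number of lower genes at 12 months. Of 32 genes, 30 were lower and 0 higher, with a median log2 fold change of -2.02. Orosomucoid 1 (*Orm1*, chromosome 4 of GRCm38, 63344560 to 63348163, plus strand), a plasma carrier of basic and neutral lipophilic molecules, had a lowest, median, and highest level of 2184, 3648, and 5726 CPM at 6 months and of 565, 699, and 1079 CPM at 12 months, a log2 fold change of -2.24 (SE 0.13, adjusted p = 1.69e-05). The neighbouring gene *Orm2* went from 208, 629, and 811 CPM to 2.18, 11, and 46 CPM, a log2 fold change of -5.65 (SE 0.40, adjusted p = 4e-05). No 12-month library reached the lowest 6-month library for either gene, and the 2-month libraries, at 778 to 1028 CPM of *Orm1* and 7.83 to 16.4 CPM of *Orm2*, lay with the 12-month libraries rather than with the 6-month ones. In a bulk sample, less RNA per cell and fewer cells that make it cannot be told apart.

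Serum amyloid A proteins, which ride on high-density lipoprotein during inflammation, included the gene with the largest log2 fold change of the list. This was *Saa2* (chromosome 7 of GRCm38, 46751790 to 46754313, plus strand), at 3077, 8393, and 17169 CPM at 6 months and at 5.73, 25.6, and 541 CPM at 12 months (log2 fold change -7.85, SE 0.86, adjusted p = 0.000489). *Saa1*, which is nearly identical to *Saa2*, so that the split of reads between them is uncertain, went from a median of 12158 CPM to 70.2 CPM, a log2 fold change of -6.75 (SE 0.77, adjusted p = 0.000616). Among the 12-month libraries, ZT5 was the highest in both genes and ZT1 the next. *Saa3*, which macrophages also make, had a log2 fold change of -5.40 (SE 0.43, adjusted p = 6.45e-05), and *Saa4*, the constitutive member carried on lipoproteins in health, of -2.08 (SE 0.16, adjusted p = 5.76e-05).

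Lipocalin 2 (*Lcn2*, chromosome 2 of GRCm38, 32384633 to 32388252, minus strand), which withholds iron from bacteria by binding their siderophores, was at 229, 781, and 2312 CPM at 6 months and at 0.501, 4.51, and 15 CPM at 12 months, a log2 fold change of -7.47 (SE 0.56, adjusted p = 4.62e-05). Serum amyloid P (*Apcs*), the acute-phase pentraxin of the mouse, went from 697, 1884, and 4263 CPM to 137, 212, and 320.4 CPM (log2 fold change -2.98, SE 0.23, adjusted p = 5.76e-05). Both genes were highest at ZT5 and lowest at ZT21 among the 6-month libraries, and their ranges at the 2 ages did not overlap. Fibrinogen-like 1 (*Fgl1*), a secreted hepatocyte protein induced by interleukin-6, went from a median of 1782 to 244 CPM, a log2 fold change of -2.73 (SE 0.23, adjusted p = 9.08e-05). The haemoglobin and haem scavengers *Hp* (-2.10) and *Hpx* (-1.83), the 3 fibrinogen chains *Fga* (-1.44), *Fgb* (-1.39), and *Fgg* (-1.39), and the endotoxin-binding protein *Lbp* (-1.77) were all lower, here in log2 fold change. So were the transcription factor of the interleukin-6 pathway, *Stat3* (-1.06), and its feedback inhibitor *Socs3* (-2.47), and the interleukin-1 receptor *Il1r1* (-1.95) with its secreted antagonist *Il1rn* (-2.64).

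**Figure D2:**
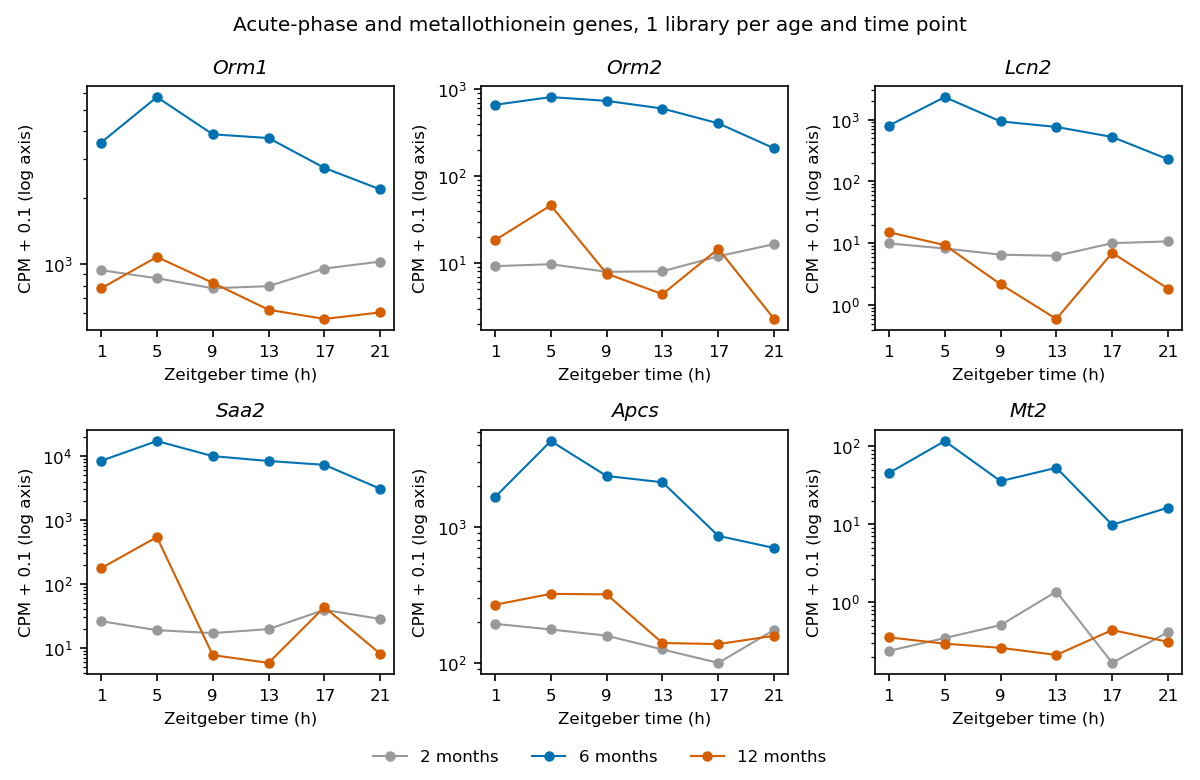
Levels of 6 genes by zeitgeber time (h) in CPM plus 0.1 on a log axis, with 1 point per library and 1 line per age (2, 6, and 12 months). In every panel all 6 points of the 6-month libraries lie above all 12-month and 2-month points, and the 12-month points of *Saa2* are highest at ZT5.

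Markers of inflammatory cells were lower at 12 months together with the acute-phase genes. Of 10 neutrophil markers 3 passed the filter, and all 3 were lower, with a summed level of 26.6 to 149 CPM at 6 months and 5.48 to 13.7 CPM at 12 months. These were the alarmins *S100a8* (log2 fold change -2.91) and *S100a9* (-2.82) and the granulocyte receptor *Csf3r* (-0.82), whereas the defining markers *Ly6g*, *Mpo*, *Camp*, and *Ngp* had medians under 1 CPM at both ages. *Prtn3*, a serine protease known from neutrophil granules and not among the 10 markers, went from 14, 32.1, and 45.4 CPM to 0.421, 1.04, and 2.87 CPM, a log2 fold change of -4.39 (SE 0.30, adjusted p = 4e-05), without overlap. Kupffer cell and macrophage markers were lower in 7 of 10 genes (median -0.45), with summed levels of 694 to 985 and 579.6 to 848 CPM. Among them, *Vsig4* (-0.48), a complement receptor of Kupffer cells, *Adgre1* (-0.47), which encodes F4/80, and *Cd68* (-0.57) were lower. Without ZT9, 0 of the 10 macrophage markers passed, without ZT13 1, without ZT21 2, and with library totals alone 3. The part of these cells in the acute-phase levels was not tested. The chemokine *Cxcl1*, which recruits neutrophils, was at 18.4, 33.4, and 143 CPM at 6 months and at 2.39, 3.54, and 6.02 CPM at 12 months (log2 fold change -3.60, SE 0.46, adjusted p = 0.00112), and 3 other chemokines of 16 tested, *Cxcl14*, *Ccl6*, and *Cxcl13*, were lower as well, while 0 were higher. Osteopontin (*Spp1*), a matrix cytokine of macrophages and bile duct cells, went from 25.5, 95.2, and 129 CPM to 7.5, 9.22, and 15.2 CPM, a log2 fold change of -2.93 (SE 0.28, adjusted p = 0.000264).

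Metallothioneins bind zinc and copper and are induced by metals, through metal response elements in their promoters, and by glucocorticoids and inflammation. *Mt2* had the smallest p of all genes tested, but it passed the filter on low counts through its 6-month libraries alone. Below is the promoter of *Mt2* up to its start site (RefSeq, GRCm38.p6, chr8:94172388-94172617, plus strand), shown because the gene lies at the extreme of the comparison. Capitals mark the 3 matches to the core of the metal response element, searched as TGCACNC or TGCGCNC on both strands.
Mt2: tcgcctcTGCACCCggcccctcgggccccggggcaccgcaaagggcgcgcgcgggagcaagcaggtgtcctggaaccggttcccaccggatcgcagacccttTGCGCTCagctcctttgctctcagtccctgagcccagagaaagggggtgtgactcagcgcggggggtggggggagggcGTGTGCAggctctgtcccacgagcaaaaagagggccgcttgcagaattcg
A match to this short core was present in 21.4% of 32817 promoter windows of 250 bases, so a match by itself describes the letters only. *Mt2* was measured at 9.74, 40.4, and 116 CPM at 6 months and at 0.111, 0.203, and 0.341 CPM at 12 months, where the counts were 2 to 6 reads per library, with a log2 fold change of -7.55 (SE 0.34, adjusted p = 1.37e-06). *Mt1*, its neighbour on chromosome 8, went from 230.2, 919, and 3192 CPM to 7.58, 16.1, and 29.9 CPM, a log2 fold change of -5.84 (SE 0.51, adjusted p = 0.000155). For both genes the ranges did not overlap, and among the 6-month libraries ZT5 had the most *Mt2* reads. Of the 19 genes of iron handling and metallothioneins tested, 5 were lower and 1 higher (median 0.03). The other lower members were the zinc and iron importers *Slc39a14* (-0.99) and *Slc11a2* (-0.67) and haem oxygenase *Hmox1* (-0.59), and the higher member was *Id1* (0.74), a target of the BMP signal that sets hepcidin. The number of lower genes was 2 without ZT1 or without ZT9, and 3 with no block for ZT or with library totals alone.

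Other secreted plasma proteins were lower in part. Among 37 complement and coagulation genes, 13 were lower and 1 was higher (median -0.14), among them the membrane attack components *C9* (-0.93), *C8a* (-0.74), and *C6* (-0.76). Clade A serpins, the protease inhibitors of plasma, were lower in 8 of 18 genes and higher in 1 (median -0.44). *Serpina10*, which inhibits factor Xa, went from 253, 414, and 918 CPM to 109, 118, and 164 CPM (log2 fold change -1.81, SE 0.19, adjusted p = 0.000421), and *Serpina3n* from a median of 1152 to 165 CPM (log2 fold change -2.89, SE 0.33, adjusted p = 0.000616). The Serpina3 genes are near copies of each other, and reads may be split among them. The corticosteroid-binding globulin *Serpina6* was the higher member, at 0.72.

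Chaperones of the ER fold and retain secretory proteins, and many carry in their promoters the ER stress element, CCAAT and CCACG separated by 9 bases, through which ATF6 and XBP1 act. The element, searched as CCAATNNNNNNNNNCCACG on both strands, was present in 37 of 32817 promoter windows of 250 bases (0.113%) and in 9 of the 20 listed chaperone genes that had a window. Here and in the searches below, a gene counted if any of its windows matched, whereas the share is of single windows. The promoters of 4 of these 9 genes are shown because the genes were lower together at 12 months, with the element in capitals (RefSeq, GRCm38.p6). They are *Hspa5* (chr2:34771960-34772089, plus strand), *Pdia6* (chr12:17266459-17266588, plus strand), *Creld2* (chr15:88819496-88819645, plus strand), and *Hsp90b1* (chr10:86705524-86705664, minus strand), and in *Creld2* and in the downstream copy of *Hsp90b1* the element lies on the opposite strand.
Hspa5: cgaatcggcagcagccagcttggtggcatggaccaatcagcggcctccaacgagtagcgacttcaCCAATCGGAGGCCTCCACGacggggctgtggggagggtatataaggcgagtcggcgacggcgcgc
Pdia6: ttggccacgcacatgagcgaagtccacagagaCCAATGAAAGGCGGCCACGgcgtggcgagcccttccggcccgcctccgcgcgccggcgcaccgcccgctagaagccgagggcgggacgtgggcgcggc
Creld2: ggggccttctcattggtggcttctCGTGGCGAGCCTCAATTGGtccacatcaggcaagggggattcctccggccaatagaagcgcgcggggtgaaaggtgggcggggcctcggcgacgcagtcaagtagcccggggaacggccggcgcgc
Hsp90b1: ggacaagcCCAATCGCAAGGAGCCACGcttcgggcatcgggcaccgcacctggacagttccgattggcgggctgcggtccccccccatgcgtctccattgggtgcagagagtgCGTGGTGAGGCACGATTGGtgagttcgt
Of 23 ER chaperone genes tested, 17 were lower at 12 months and 0 higher, with a median log2 fold change of -0.75, and all 23 had a negative log2 fold change (-1.99 to -0.02). *Creld2*, a disulfide isomerase that is secreted under ER stress, went from 29.1, 63.1, and 132 CPM to 10.4, 15.9, and 27.4 CPM, a log2 fold change of -1.99 (SE 0.26, adjusted p = 0.00141), without overlap between the ages. *Sdf2l1*, a partner of the Hsp70 of the ER, was at 31.4, 76.1, and 128 CPM and then at 7.96, 21, and 52 CPM (log2 fold change -1.79, SE 0.23, adjusted p = 0.00112). *Manf*, a secreted trophic factor of the ER, was at 98.2, 171, and 247 CPM at 6 months and at 50.4, 66.2, and 106 CPM at 12 months (log2 fold change -1.25, SE 0.16, adjusted p = 0.0011). Their highest 12-month libraries, ZT1 for *Sdf2l1* and ZT17 for *Manf*, reached into the range of the 6-month libraries. The disulfide isomerases *Pdia6* (-0.75), *Pdia4* (-0.80), and *Pdia3* (-0.56), the Hsp70 of the ER *Hspa5* (-0.94), the Hsp90 of the ER *Hsp90b1* (-0.80), and the calcium-binding lectin chaperone *Calr* (-0.73) were also lower. So were *Syvn1* (-1.01) and *Sel1l* (-0.47), the ligase and adaptor that clear misfolded proteins, and the transcription factor *Xbp1* (-0.62). Without ZT9, 11 of the 23 genes passed as lower.

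Stress responses outside the ER were also examined. Of 19 cytosolic heat shock genes, 6 were lower and 0 higher (median -0.25), among them *Hsp90aa1*, the inducible cytosolic Hsp90, at 375, 519, and 681 CPM and 173, 246, and 409 CPM (log2 fold change -0.92, SE 0.13, adjusted p = 0.00233), and *Hspa1a*, the inducible Hsp70 (-1.76). The number of lower heat shock genes was 3 without ZT9 and 2 with no block for ZT. Immediate-early genes, which encode transcription factors switched on within minutes of a stimulus, were lower in 5 of 23 genes and higher in 1 (median -0.29). *Junb* went from 16.7, 33.6, and 90.1 CPM to 11.4, 15.4, and 22.7 CPM (log2 fold change -1.36, SE 0.19, adjusted p = 0.00194), and *Fos* (-1.82), *Jun* (-0.69), *Btg2* (-1.09), and *Fosl2* (-0.54) were lower too, and 3 passed as lower without ZT1, ZT13, or ZT21. The gene the study was built around, *Egr1*, had 3.07, 7.92, and 37.8 CPM at 6 months and 2.39, 4.33, and 14.3 CPM at 12 months, and its log2 fold change of -0.72 (SE 0.40, adjusted p = 0.27) did not pass. In the amino acid stress list of 19 genes, 2 were lower, the acute-phase activator *Cebpb* (-0.79) and the mTOR inhibitor *Ddit4* (-0.94), and 0 were higher (median -0.26).

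De novo lipogenesis was the group with the largest share of members higher at 12 months. Of 20 genes, 18 were higher and 0 lower, with a median log2 fold change of 1.24, and their summed level was 4355 to 9094 CPM at 6 months and 9578 to 28319 CPM at 12 months. ATP-citrate lyase (*Acly*, chromosome 11 of GRCm38, 100476353 to 100528000, minus strand), which makes the cytosolic acetyl-CoA, went from 98.8, 157, and 252 CPM to 256, 553, and 804 CPM, a log2 fold change of 1.80 (SE 0.33, adjusted p = 0.00729). Malic enzyme (*Me1*), a source of NADPH, went from 82.3, 117, and 145 CPM to 144, 417, and 577 CPM (log2 fold change 1.78, SE 0.26, adjusted p = 0.00214). The elongase of polyunsaturated fatty acids *Elovl5* went from 84.9, 120.4, and 186 CPM to 195, 267, and 547 CPM (log2 fold change 1.40, SE 0.19, adjusted p = 0.00162). In *Acly* and *Elovl5* the ages did not overlap, whereas the 12-month library at ZT1, by far the lowest of its age for *Acly* and *Me1*, fell within the 6-month range of *Me1*.

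Other steps of lipogenesis were higher as well. Fatty acid synthase (*Fasn*) had a log2 fold change of 1.99, the stearoyl-CoA desaturase *Scd1* one of 1.68, the elongase *Elovl6* one of 1.77, and the acetyl-CoA carboxylases *Acaca* and *Acacb* values of 1.09 and 1.35. The regulators *Srebf1* (1.12), which insulin activates, and *Mlxipl* (0.72), the carbohydrate-responsive factor, were higher, together with liver pyruvate kinase (*Pklr*, 1.51). A sterol regulatory element searched as TCACNCCAC on both strands was present in 1 of the 16 lipogenic genes with a promoter window, *Mlxipl*, and in 1.05% of all windows. Without the time point ZT9, 9 rather than 18 of the 20 genes passed as higher, and without ZT21, 10 did.

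**Figure D3:**
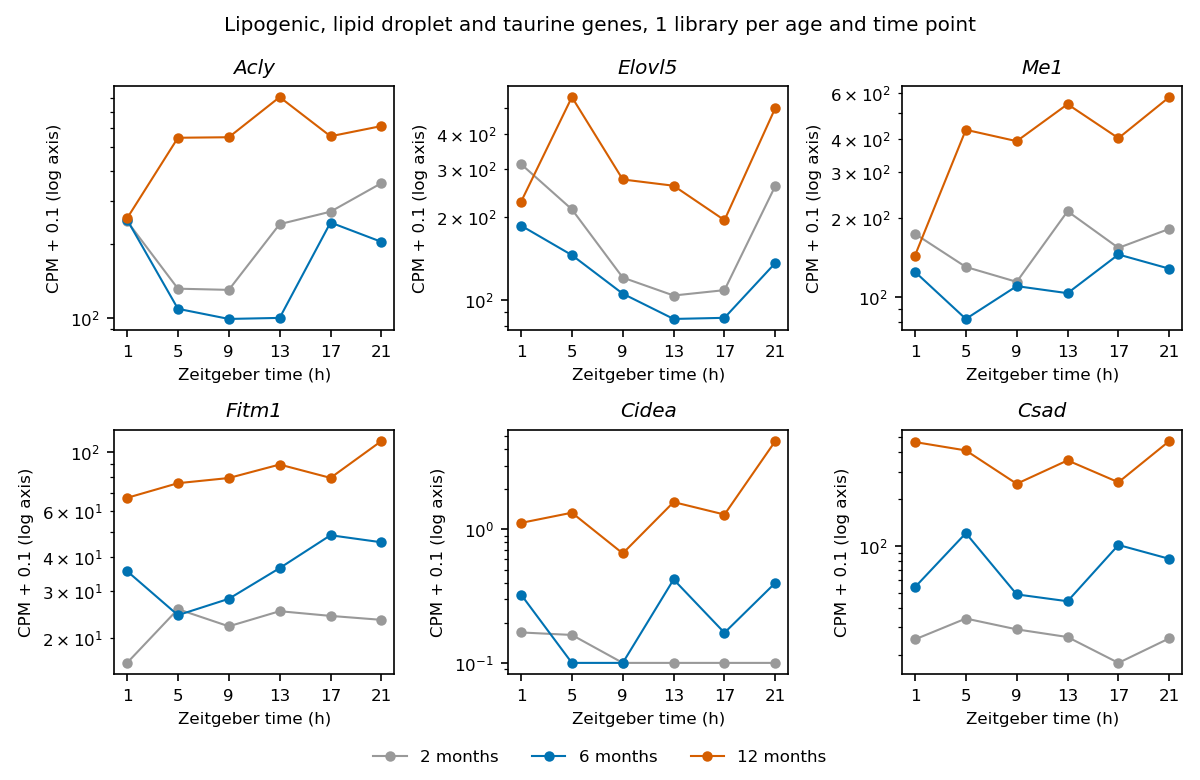
Levels of 6 genes of lipid synthesis, lipid droplets, and taurine synthesis by zeitgeber time (h) in CPM plus 0.1 on a log axis, with 1 point per library and 1 line per age (2, 6, and 12 months). The 12-month points lie above the 6-month points at every time in *Fitm1* and *Csad*, and the 12-month point of *Acly* and *Me1* is lowest at ZT1.

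Genes of the lipid droplet were higher in 4 of 15 tested and lower in 0 (median 0.23). *Fitm1* (chromosome 14 of GRCm38, 55575617 to 55576954, plus strand), an ER protein that partitions triglyceride into droplets, went from 24.2, 35.9, and 48.4 CPM to 66.9, 79.5, and 109 CPM, a log2 fold change of 1.24 (SE 0.12, adjusted p = 0.000341). *Cidec*, which fuses droplets and is a marker of fat cells, went from 1.73, 3.47, and 3.86 CPM to 4.78, 8.75, and 19.3 CPM (log2 fold change 1.62, SE 0.21, adjusted p = 0.00121). Neither gene overlapped between the ages, and the droplet-associated dehydrogenases *Hsd17b13* (0.48) and *Hsd17b11* (0.37) were higher by less. Without ZT13 2 genes of the list passed as higher, and 7 did with no filter on low counts. Of the fat cell markers, 2 of 5 tested were higher, *Cidec* and the carbonic anhydrase *Car3* (1.18), and 0 were lower (median 1.18), with 1 higher without ZT1, ZT5, ZT13, or ZT21. The droplet protein *Cidea*, the target the study followed, was not tested because of low counts, 0 to 5 reads per library at 6 months and 7 to 64 at 12 months. No 12-month library had as few *Cidea* reads as any 6-month library, at 0 to 0.322 CPM and 0.562 to 4.49 CPM.

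Triglyceride assembly and fatty acid uptake had 6 higher and 0 lower genes of 28 (median 0.22). The summed level of the list was 4472 to 6921 CPM at 6 months and 7280 to 9752 CPM at 12 months. The 2-month libraries of the time course, at 7695 to 9182 CPM, lay above all 6-month libraries. *Gpam*, the mitochondrial acyltransferase that starts glycerolipid synthesis, went from 47, 67.6, and 118 CPM to 125, 204, and 269 CPM, a log2 fold change of 1.47 (SE 0.29, adjusted p = 0.0102), without overlap. The cytosolic fatty acid carriers *Fabp1* (0.87) and *Fabp2* (0.71), the acyl-CoA synthetase *Acsl5* (0.76), the phosphatidate phosphatase *Lpin2* (0.76), and hepatic lipase *Lipc* (0.62) were also higher. Without ZT9 2 genes of the list passed as higher, and without ZT21 3 did.

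Genes of fatty acid oxidation were also among those higher at 12 months. Of 34 genes, 16 were higher and 0 lower, with a median log2 fold change of 0.34. The summed level of the list was 6310 to 7320 CPM at 6 months and 7849 to 10110 CPM at 12 months. The 2-month libraries of the time course, at 7584 to 8738 CPM, lay above all 6-month libraries. The microsomal omega-hydroxylase *Cyp4a14*, a target of the fatty acid receptor PPARalpha, went from 3.2, 17.6, and 43.7 CPM to 54.3, 94.8, and 192 CPM (log2 fold change 2.65, SE 0.29, adjusted p = 0.000517), and its neighbour *Cyp4a10* from 10.6, 21.8, and 41.1 CPM to 42.9, 58.5, and 84.8 CPM (log2 fold change 1.36, SE 0.21, adjusted p = 0.00284). The peroxisomal thiolase *Acaa1b* was at 234, 439.5, and 655 CPM at 6 months and at 969, 1050.2, and 1548 CPM at 12 months (log2 fold change 1.47, SE 0.19, adjusted p = 0.0011). For these 3 genes no 12-month library lay within the 6-month range. Other higher PPARalpha targets were the thioesterases *Acot1* (1.30), *Acot2* (0.99), *Acot3* (1.92), and *Acot4* (0.87), the peroxisomal bifunctional enzyme *Ehhadh* (0.95), and *Pdk4* (1.04), which restrains glucose oxidation. The mitochondrial dehydrogenases *Acadm* (0.39), *Acadl* (0.39), and *Hadh* (0.45) were higher by smaller amounts. With no block for ZT, or without any 1 of ZT1, ZT9, ZT13, and ZT21, 10 rather than 16 genes of the list passed.

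Sterol and bile acid genes were higher in part. Cholesterol synthesis had 4 higher and 0 lower genes of 20 (median 0.28, with 0 higher without ZT9, 1 without ZT13 or ZT21, 2 without ZT5, and 7 without ZT17 or by DESeq2), including *Pmvk* (1.17), *Sc5d* (0.90), and *Acat2* (0.82). Of 21 genes of cholesterol uptake, export, and regulation, 5 were higher and 0 lower (median 0.14), and 2 passed as higher without ZT9 or with no block for ZT and 3 without ZT1 or ZT5. *Pltp*, the phospholipid transfer protein of plasma, went from 12.7, 18.4, and 23.8 CPM to 32.1, 62.1, and 101 CPM (log2 fold change 1.77, SE 0.23, adjusted p = 0.00136), and the pair that exports sterols to bile, *Abcg5* (0.55) and *Abcg8* (0.53), was higher with overlap. In bile acid synthesis and transport, 4 of 25 genes were higher and 2 lower (median 0.18), and 2 passed as higher without ZT9 and 8 with no filter on low counts. *Cyp8b1*, which sets the share of cholic acid, was higher at 1.21, and the efflux pump *Abcc3* at 0.80, whereas *Cyp7b1* of the alternative pathway (-1.18) and *Cyp2c70*, which makes muricholic acids (-0.78), were lower. Among apolipoproteins, 1 of 15 genes was higher, *Apoc1* (0.49), and 2 were lower, *Apon* (-0.60) and *Apoa4* (-0.57), with a median of 0.29. On leaving out any 1 ZT, or with DESeq2 size factors or no block for ZT, 0 apolipoprotein genes passed as higher in edgeR, whereas 5 did with library totals alone and 7 did by DESeq2. The number of lower ones was 1 without ZT9 or with no block.

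Enzymes that conjugate toxins and drugs make them soluble for excretion. In phase II conjugation, 18 of 43 genes were higher and 1 lower (median 0.37), and 14 of the 18 were glutathione S-transferases of the Gsta, Gstm, Gsto, Gstp, and Gstt families, whose members are similar enough that reads may be split among them. *Gstm1* went from 416, 472, and 780.5 CPM to 979.8, 1292, and 1576 CPM (log2 fold change 1.30, SE 0.16, adjusted p = 0.0011). *Gsta2* went from 4.74, 14.7, and 26.4 CPM to 42.2, 52.3, and 71.8 CPM (log2 fold change 1.88, SE 0.29, adjusted p = 0.00296), and the microsomal *Mgst3* from 8.18, 10.6, and 18.7 CPM to 28.6, 30.7, and 50.1 CPM (log2 fold change 1.51, SE 0.21, adjusted p = 0.00167). In all 3 genes the ages did not overlap. Of 25 genes of the oxidative stress response, 10 were higher and 2 lower (median 0.20). Among them, the quinone reductase *Nqo1* went from 2.66, 3.1, and 6.4 CPM to 6.88, 8.56, and 11.5 CPM (log2 fold change 1.22, SE 0.21, adjusted p = 0.00532) and the epoxide hydrolase *Ephx1* from 87.7, 98.5, and 122 CPM to 149.6, 194, and 219 CPM (log2 fold change 0.91, SE 0.12, adjusted p = 0.00139), and their activator *Nfe2l2* was higher by 0.37 on the log2 scale. The number of higher genes on this list was 4 or 5 without ZT5, ZT9, ZT13, or ZT21. Cytochromes P450 of families 1 to 3 were 2 higher and 5 lower of 38 (median 0.05), with *Cyp2c38* (1.02) higher and *Cyp3a13* (-0.75) and *Cyp2d40* (-0.61) lower. Without ZT9 1 passed as higher and 3 as lower.

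Among genes with the smallest p in the higher direction, *Csad* (chromosome 15 of GRCm38, 102176999 to 102204724, minus strand) encodes the decarboxylase that makes hypotaurine, the precursor of taurine for bile salts. Its levels were 44, 68.3, and 121 CPM at 6 months and 251, 384, and 473 CPM at 12 months, a log2 fold change of 2.37 (SE 0.22, adjusted p = 0.000259), and no library of 1 age lay within the range of the other. Its 2-month libraries of the time course were lower than both ages, at 17.6 to 34 CPM. This order did not hold in the separate cohort, whose 2-month WT and KO libraries, otherwise not used here, were at 183 to 476 CPM. Its 6-month libraries were at 127 to 263 CPM and its 12-month libraries at 253 to 548 CPM. The carboxylesterase *Ces1e*, which hydrolyses lipid and drug esters, went from 50.8, 70, and 86.5 CPM to 150.5, 174, and 234 CPM (log2 fold change 1.44, SE 0.15, adjusted p = 0.000389), and *Abcd2*, a peroxisomal importer of very long-chain fatty acids, from 2.18, 3.19, and 6.37 CPM to 14, 22.7, and 36.3 CPM (log2 fold change 2.64, SE 0.28, adjusted p = 0.000405). Calsyntenin 3 (*Clstn3*), an adhesion protein best known from synapses, had a log2 fold change of 1.52, the dehydrogenase *Dhrs7* of 1.03, and the uncharacterized *2310039H08Rik* of 0.73. By size of fold, the higher genes included *Gm19572* (3.61) and the glucose transporter of muscle and fat *Slc2a4* (3.24), both at under 2 CPM in every 6-month library and with counts down to 0 there for *Slc2a4*. Neither gene passed the filter on low counts through its 6-month libraries alone. In the lower direction, *Slc13a3*, a sodium-coupled carrier of dicarboxylates, went from 9.75, 13, and 16.5 CPM to 2.17, 2.49, and 4.33 CPM (log2 fold change -2.15, SE 0.16, adjusted p = 4.62e-05), and the ascorbate-dependent reductase *Cyb561* from 12.5, 21.1, and 49.8 CPM to 4.32, 5.56, and 8.84 CPM (log2 fold change -1.91, SE 0.13, adjusted p = 4e-05).

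Major urinary proteins are pheromone carriers that male mouse livers secrete in bulk under growth hormone pulses and androgens. Of 20 genes tested, 13 were lower at 12 months and 0 higher, with a median log2 fold change of -1.64. These genes are close copies of each other on chromosome 4, so counts may be split among them, and a single member is uncertain. *Mup7* went from 13509, 17282, and 21655 CPM to 3743, 7336, and 8159.5 CPM, a log2 fold change of -1.39 (SE 0.21, adjusted p = 0.0025), and *Mup11* from 1283, 1639, and 2340.4 CPM to 232, 447, and 567 CPM (log2 fold change -2.06, SE 0.19, adjusted p = 0.000259). In both the 12-month libraries lay below all 6-month libraries, and the 2-month libraries of *Mup7* (15918 to 24258 CPM) lay with those of 6 months. *Mup4* had 109.8, 267, and 313 CPM at 6 months, whereas 4 of the 6 libraries at 12 months had 0 reads. It passed the filter on low counts through its 6-month libraries alone.

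Other male-biased liver genes were lower in 6 of 21 and higher in 1 (median -0.43, with *Mup7* and *Mup12* among the 6). *Selenbp2*, a selenium-binding protein whose reads may be shared with its close copy Selenbp1, went from 578, 623, and 1244 CPM to 95.3, 151, and 277 CPM, a log2 fold change of -2.15 (SE 0.15, adjusted p = 4e-05). *Cyp7b1*, the oxysterol hydroxylase, went from 267, 345, and 435 CPM to 139, 152, and 164 CPM (log2 fold change -1.18, SE 0.12, adjusted p = 0.000421). Neither gene overlapped between the ages. Of 27 female-biased genes 8 passed the filter on low counts, of which 4 were higher and 2 lower. *Ntrk2* passed the filter through its 12-month libraries alone, and with no filter the median log2 fold change of the list was 0.29, with 6 genes higher. The summed level of the list had medians of 104 CPM at 6 months and 103 CPM at 12 months. The number of lower genes was 1 or 2 on leaving out a ZT and 0 with no block. The higher ones included the neurotrophin receptor *Ntrk2* (0.852, 1.93, and 2.57 CPM at 12 months against 0.0681, 0.219, and 0.525 CPM at 6 months), *Abcd2*, and the organic anion carrier *Slc22a27* (2.01), and the steroid hydroxylase *Cyp17a1* (-1.38) was among the lower ones. In the growth hormone and IGF axis, 1 of 21 genes was higher, *Igfbp2* (0.77), and 1 lower, *Socs3* (-2.47), with a median of 0.01. Of 30 hepatic nuclear receptors, 3 were higher, including *Pparg* (0.76) and *Rxrg* (0.66), and 1 lower, *Rarg* (-0.44), with a median of 0.12. Without ZT9 or with no block for ZT 1 receptor gene passed as higher, and *Rarg* did not pass with no block, by DESeq2, with library totals alone, or without ZT1, ZT5, ZT9, ZT13, or ZT21.

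**Figure D4:**
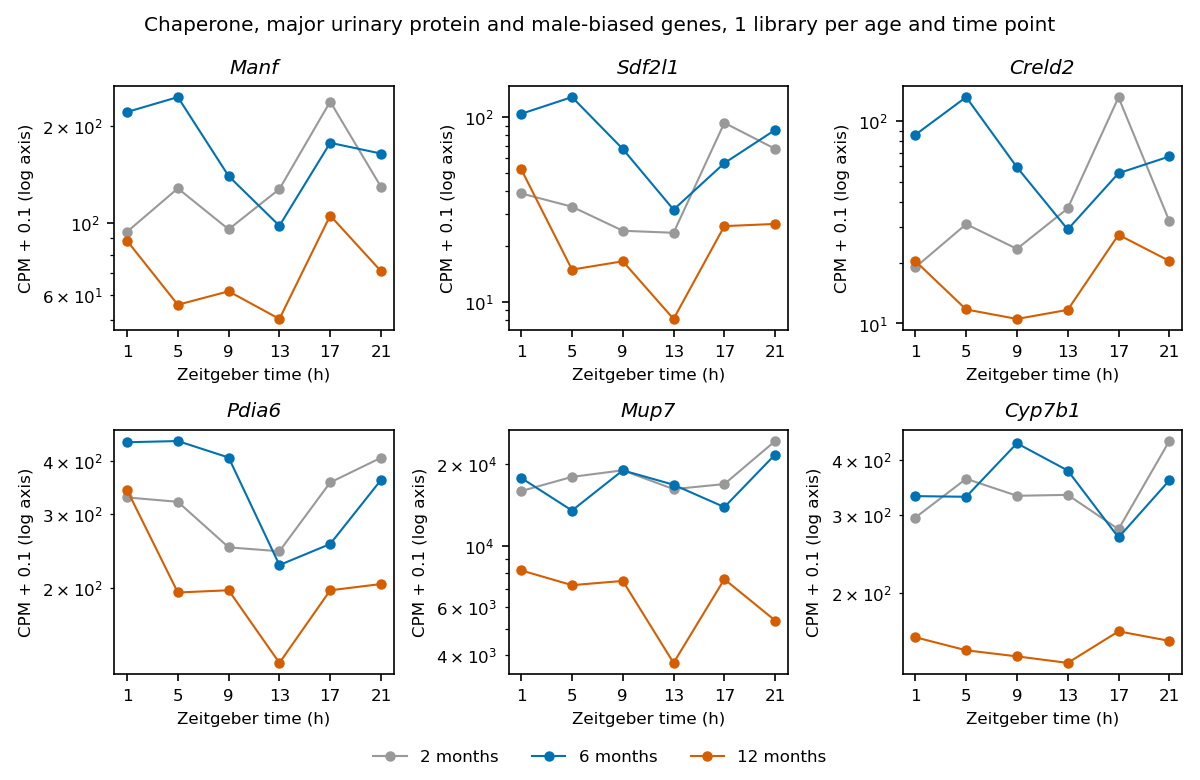
Levels of 4 ER chaperone genes, a major urinary protein gene, and *Cyp7b1* by zeitgeber time (h) in CPM plus 0.1 on a log axis, with 1 point per library and 1 line per age (2, 6, and 12 months). All 12-month points of *Mup7* and *Cyp7b1* lie below the 6-month and 2-month points, whereas the 12-month points of *Manf*, *Sdf2l1*, and *Pdia6* reach into the range of the 6-month points and those of *Creld2* do not.

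Glucose and amino acid metabolism differed in part of its genes. In gluconeogenesis and glycogen, 8 of 21 genes were higher and 0 lower (median 0.56), among them the sugar transporter *Slc2a2* (1.02), glucose-6-phosphatase *G6pc* (0.99), ketohexokinase *Khk* (0.72), and the glycogen enzymes *Gbe1* (0.82), *Pygl* (0.66), and *Gys2* (0.53). The number of higher genes on this list was 2 without ZT9, 4 without ZT13 or ZT21, and 13 with library totals alone. In the urea cycle and amino acid catabolism, 5 of 37 genes were higher and 2 lower (median 0.23). The argininosuccinate enzymes *Ass1* (0.70) and *Asl* (0.56) and liver glutaminase *Gls2* (0.62) were higher, and ornithine aminotransferase *Oat* (-0.79) and the kynurenine hydroxylase *Kmo* (-0.52) lower, while 2 genes were higher without ZT5, ZT9, or ZT13, 3 without ZT21, and 10 with library totals alone. *Oat* and glutamine synthetase *Glul* (-0.79) mark pericentral hepatocytes, a list with 3 lower and 0 higher genes of 20 (median -0.24), with 5 lower without ZT21. The periportal list had 4 higher and 3 lower of 20 (median 0.08, and 0.23 without ZT5), with 2 higher without ZT9 or ZT13, 7 higher and 5 lower by DESeq2, and 1 lower with no block for ZT. Retinoid metabolism had 4 higher and 1 lower gene of 20 (median 0.26), led by the retinol dehydrogenases *Rdh16* (1.30) and *Rdh11* (1.09). Organic ion transporters had 4 higher and 5 lower of 26 (median 0.04, and 2 higher without ZT9 or ZT21), with the citrate carrier *Slc13a5* lower at 1.19, 3.5, and 18.9 CPM and 0.26, 0.398, and 1.08 CPM (log2 fold change -2.99, SE 0.46, adjusted p = 0.00336). Of 19 hepatokines, *Igfbp2* and *Angptl6* (0.67) were higher and 0 lower (median -0.14).

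Immune and matrix genes showed differences in both directions. Immunoglobulin M heavy chain (*Ighm*, chromosome 12 of GRCm38, 113418558 to 113422730, minus strand) went from 6.11, 8.17, and 11.2 CPM to 34.7, 51.8, and 279 CPM, a log2 fold change of 3.01 (SE 0.32, adjusted p = 0.000405), and the light chain *Igkc* from 5.17, 5.34, and 6.63 CPM to 14.7, 19.1, and 169.5 CPM (log2 fold change 2.26, SE 0.40, adjusted p = 0.00663). The joining chain *Jchain* was the other higher gene of the 10 B and plasma cell markers (median 0.66, 0 lower). In all 3 the library at ZT9 was far above the other 12-month libraries, and the lowest 12-month library was still above the highest 6-month library. The summed B and plasma cell markers were 21.8 to 28.1 CPM at 6 months and 61.4 to 539 CPM at 12 months. The heavy chain *Ighg2c* was at 0 to 0.67 CPM and then at 0.909 to 10.1 CPM, with 0 reads in the lowest 6-month library. *Ighg2c* passed the filter on low counts through its 12-month libraries. Major histocompatibility genes were higher in 6 of 19 and lower in 0 (median 0.24), including the class II chains *H2-Aa* (0.65), *H2-Eb1* (0.63), and *H2-Ab1* (0.59), and 2 passed without ZT9 and 3 without ZT5, ZT13, or ZT21 or with no block for ZT. Interferon-induced genes were lower in 8 of 49 and higher in 1 (median -0.19), led by the nucleic acid sensor *Zbp1* (-1.13) and the oligoadenylate synthetases *Oas1g* (-1.09) and *Oas3* (-0.97), and 3 passed as lower without ZT13, 4 without ZT1, ZT9, or ZT21, and 5 with library totals alone.

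Collagens and matrix genes were lower in 9 of 36 and higher in 1 (median -0.41). Apart from *Spp1*, the fibrillar collagen *Col1a1* went from 7.52, 12.4, and 24.8 CPM to 3.09, 5.52, and 9.43 CPM with overlap (log2 fold change -1.22, SE 0.23, adjusted p = 0.00876), and the basement membrane chains *Col4a1* (-0.83) and *Col4a2* (-0.70) were lower. Without ZT9 2 genes of the list passed as lower, without ZT13 3 did, and without ZT1 4 did. Stellate cell markers were higher in 3 of 10, *Reln* (0.82), *Hand2* (0.58), and *Ecm1* (0.57), and lower in 0 (median 0.34). Of 10 markers of the sinusoidal endothelium 1 was lower, *Stab2* (-0.45), and 0 higher (median -0.44), and of 6 cholangiocyte markers tested *Spp1* alone was lower (median -0.45). Among the 10 hepatocyte markers, *Ttr* (0.60) was higher and the acute-phase gene *Fgb* lower (median 0.17). None of the tested markers of T and NK cells (6), erythroid cells (9), pancreas (2), or skeletal muscle (1) passed in the edgeR test (unadjusted p under 0.05 in 1, 1, 0, and 1 genes, and 1 erythroid gene lower by DESeq2), with medians of 0.10, -0.60, 0.09, and 0.84. Cell cycle genes had 2 lower of 20, *Ccne1* (-1.71) and *Stmn1* (-0.61), and 0 higher (median -0.47), and p53 targets and senescence genes 2 lower of 18, *Cxcl1* and *Il1b* (-0.88), and 1 higher, *Bbc3* (0.56), with a median of -0.07. *Ccne1* passed the filter on low counts through its 6-month libraries.

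Groups of respiratory and ribosomal genes had few members past the threshold. Nuclear-encoded oxidative phosphorylation had 10 higher and 0 lower genes of 80 (median 0.27), among them the complex I subunits *Ndufa6* (0.62) and *Ndufb8* (0.53). The number of higher genes was 1 without ZT9, 6 with no block for ZT, and 29 with library totals alone. Mitochondrially encoded transcripts had 1 higher gene of 13, *mt-Atp8* (0.69), and 0 lower (median 0.02). Cytosolic ribosomal proteins had 4 higher and 0 lower of 87 (median 0.26), with 1 higher without ZT9, 8 with no block for ZT, and 17 with library totals alone. None of the 19 clock genes and outputs passed for mean daily level in edgeR (median 0.28, 7 with an unadjusted p under 0.05), the smallest adjusted p being 0.079 for the nuclear receptor *Rora* (0.34). The number of higher clock genes was 1 by DESeq2, 2 without ZT1 or with library totals alone, and 7 with no filter on low counts.

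Whether the difference between the ages varied over the day was tested with the interaction of age and a 24-h curve. Of the 13046 genes, 3 (0.0230%) passed, and 1279 had an unadjusted p under 0.05 (edgeR quasi-likelihood F-test). They were the metalloreductase *Steap4*, an interleukin-6 target, the lectin-like *Clec2h*, and the mitochondrial cysteine tRNA *mt-Tc*. *Steap4* varied over the day from 161 to 1636 CPM at 6 months and from 71.1 to 94.3 CPM at 12 months, and was also the 1 gene of the 3 with a lower mean level (log2 fold change -2.51, SE 0.40, adjusted p = 0.00383). *Clec2h* (0.87) and *mt-Tc* (-0.18) did not pass for mean level (adjusted p = 0.328 and 0.718).

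The separate cohort gave a comparison of the same ages in other animals, with 4 libraries at 6 months and 4 at 12 months paired by genotype and time of collection. The collection in the light phase was at ZT9 at 6 months and at ZT5 at 12 months, so age and time cannot be told apart in those libraries, whereas the other collection was at ZT21 at both ages. Of 13791 genes tested, 3 (0.0218%) passed, and 1409 had an unadjusted p under 0.05 (edgeR quasi-likelihood F-test). They were *Ighm*, higher at 12 months with a log2 fold change of 2.13 (SE 0.16, adjusted p = 0.014), and *Mup5* (-7.48) and the P450 reductase *Por* (-1.03), which were lower. Of 1354 genes called in the time course and tested here, 925 (68.3%) had a log2 fold change of the same sign in this cohort, against 7223 of 12884 (56.1%) of all genes tested in both.

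Many acute-phase genes differed between the cohorts. A test of the age difference between the cohorts over their 20 libraries, chosen after the data were seen, passed for 167 of 14059 genes (1.19%), of which 52 had a more positive and 115 a more negative log2 fold change in the time course. Among them were 18 of the 32 acute-phase genes, all more negative in the time course. *Orm1* was at 629 to 859 CPM in the 6-month and at 601 to 686 CPM in the 12-month libraries of the separate cohort, a log2 fold change of -0.17 (SE 0.11, adjusted p = 0.676), and its difference between the cohorts was -2.08 (adjusted p = 0.000193). *Lcn2* had 5.2 to 28.9 CPM and 3.71 to 26 CPM there, and a difference between the cohorts of -7.14 (adjusted p = 0.00246). For *Orm1* the 6-month libraries of that cohort were all below every 6-month library of the time course. The median log2 fold change of the acute-phase list in that cohort was -0.33, with 28 of 32 genes below 0.

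For ER chaperones, lipogenesis, major urinary proteins, and the sex-biased groups, 0 genes passed this test of a difference between cohorts. The ER chaperone list had a median log2 fold change of -0.35 in the separate cohort, where all 23 genes were below 0, and 0 of its genes passed for a difference between cohorts. The lipogenesis list had a median of 0.33 there, with 20 of 21 genes above 0 and summed levels of 11177 to 29060.3 CPM at 6 months and 20294 to 30464 CPM at 12 months, and 0 passed for a difference. For the major urinary proteins the median was -1.24 with 18 of 21 genes below 0, and for male-biased genes -0.81 with 20 of 21 below 0, and 0 passed in each list. *Selenbp2* had 90 to 655 CPM at 6 months and 21.3 to 162 CPM at 12 months in that cohort (log2 fold change -2.53, SE 0.33, adjusted p = 0.109), and *Igkc* had 8.48 to 15.2 and 24.7 to 72 CPM. *Cidea* was at 1.62 CPM in both WT libraries and at 15.2 and 88.7 CPM in the KO libraries of that cohort at 6 months. At 12 months it was at 46.5 and 85.6 CPM in the WT and at 87.6 and 129 CPM in the KO libraries, and over both genotypes its log2 fold change was 3.26 (SE 0.91, adjusted p = 0.273). Fatty acid oxidation, with 16 higher genes in the time course, had a median of 0.01 in the separate cohort, with 18 genes above 0 and 17 below. Of its 35 genes, 0 passed for a difference between cohorts. Interferon-induced genes had 44 of 50 above 0 (median 0.21) against a median of -0.19 in the time course, and 3 passed. Other lists also had a median of opposite sign there, such as collagens and matrix (0.17, 28 of 37 above 0). So had cell cycle genes (0.25, 23 of 25 above 0) and macrophage markers (0.07, 6 of 10 above 0). The median was below 0 there for gluconeogenesis and glycogen (-0.04, 14 of 22) and the urea cycle list (-0.21, 31 of 37), where 4 genes passed.

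**Figure D5:**
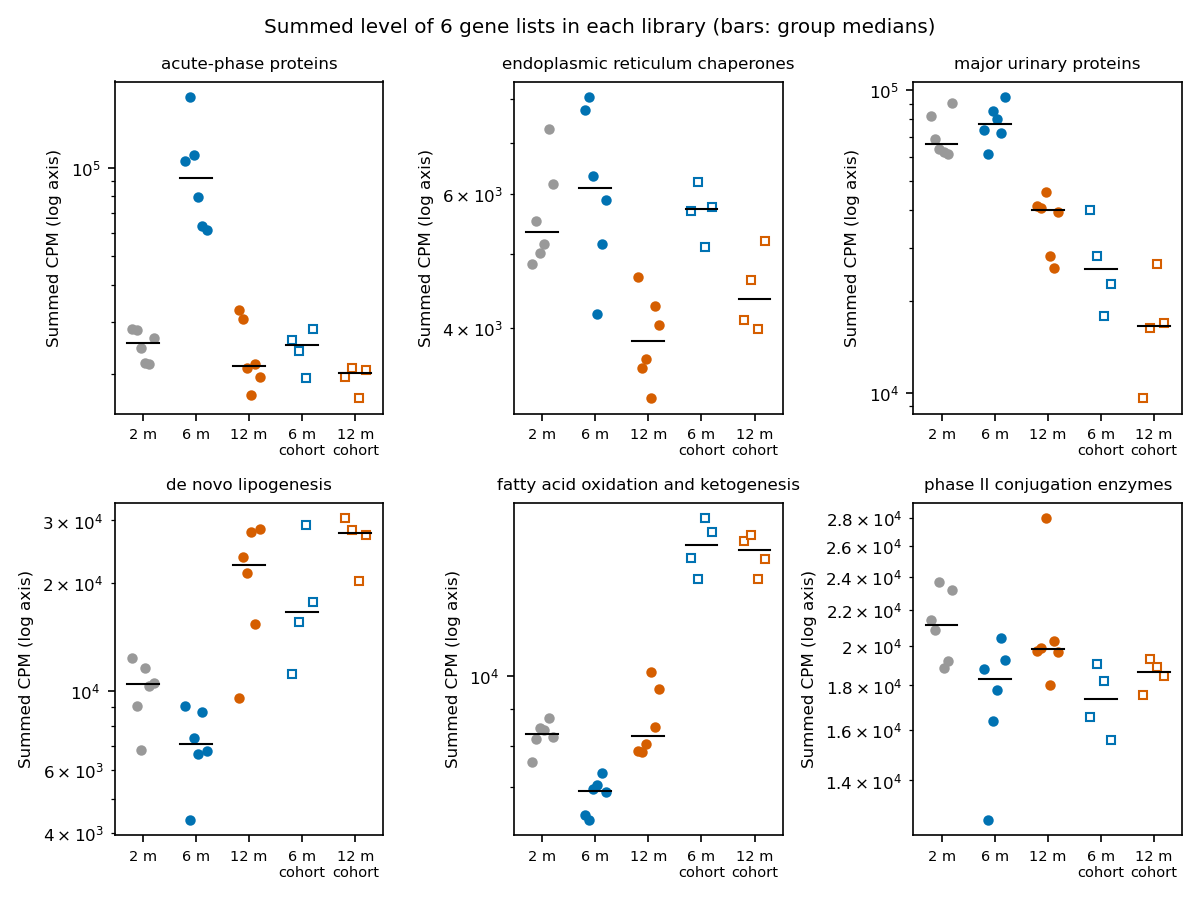
Summed CPM of the genes of 6 lists in each library, as points on a log axis, for the time course at 2, 6, and 12 months and the separate cohort at 6 and 12 months. Short bars are group medians. For the acute-phase list all 6-month points of the time course lie above every other point, and for lipogenesis the 6-month points of the separate cohort lie above those of the time course.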

How the data were processed

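Liver poly(A) RNA was sequenced in 30 libraries. The authors removed low-quality reads, aligned the rest to mm10 with HISAT2, counted them per gene with featureCounts, and deposited whole-number counts without normalization (per the labels, which also name fastp, with no versions). Columns left unused numbered 0. Counts were fitted with edgeR 4.0.16 in R 4.3.3 (quasi-likelihood F-test, TMM, filterByExpr by age, ZT as a block, Benjamini-Hochberg adjustment, threshold 0.05), with limma 3.58.1 and DESeq2 1.42.0 as alternatives. Of 54429 genes listed, 24653 had a count in the 12 libraries, and 13046 were tested. Locations came from GENCODE M21 by symbol (12970 of 13046 matched), and promoters from RefSeq. Total counts per library were 13375377 to 16262858 in the 12 libraries, the median biological coefficient of variation was 0.173, and intervals for single libraries were not computed. Samples were grouped by the age, ZT, and genotype of their labels.

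The same ZT at both ages was used as a block because the labels give it. The deviations of same-ZT libraries from their age means correlated at 0.0995 to 0.307. A library of another ZT correlated more at ZT1 (0.164 against 0.148) and at ZT5 (0.204 against 0.0995). At the other ZT the same-ZT library correlated most. The p-values weigh the mean difference between the ages against how much it varied over the 6 ZT. The estimate of that spread for a gene also draws on the other genes. In that spread, differences between animals and effects of time of day cannot be told apart.

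The genes and gene lists described here were chosen with earlier results of these data known. For naming, genes had to be called, changed the same way at all 6 ZT, and at a mean of at least 1 CPM. The 12 of lowest p and the 6 of largest fold in each direction were taken, with up to 4 members of each list with the smallest p among those past the threshold (the smallest p alone where none passed), *Egr1*, *Cidea*, and the genes past the test over the day. Other list members are named with a fold change only, and those called were chosen after their values were seen. A count of 3 or fewer was treated as the floor. The filter worked by age group, so a gene could pass it through the libraries of 1 age alone. CPM are counts per 1000000 of the TMM-scaled library total. Some genes that the rule gave are not reported here. The scripts were tested on simulated data. Normalization, the filter, the tool, the block, the threshold, and each ZT were varied.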

Additional observations from a re-analysis of the deposited data

Results flagged for a closer look

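Each named gene was searched at each age for a library far from the other 5 on the log2 scale (gap to the nearest library over the whole range, by Dixon's test for 6 values). This held in 17 of 350 gene and age groups, which is no more than the about 1 in 20 that chance alone gives. At 12 months, the library at ZT9 was far above the others in the immunoglobulin genes *Ighm* (0.683 of the range), *Igkc* (0.753), *Jchain* (0.79), and *Ighg2c* (0.734), in the transferase *Mgst3* (0.768), and in *Rora* (0.704). The library at ZT1 of the same age was far below the others in the lipogenic genes *Acly* (0.664) and *Me1* (0.722), in *Oat* (0.851), and in *Slc22a27* (0.633), and above them in *Socs3* (0.644). The other such values at 12 months were *Igfbp2* at ZT17 (0.632, high) and *Vnn1* at ZT21 (0.732, low). At 6 months, they were *Apoa4* at ZT1 (0.694, high), *Gm19572* at ZT1 (0.641, high), *Prtn3* at ZT17 (0.64, low), and *Vsig4* at ZT5 (0.634, low).

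For 33 of the 175 named genes, the log2 fold change of 12 over 6 months differed between the time course and the separate cohort in the edgeR test of the age by cohort term (Benjamini-Hochberg adjusted p under 0.05). The values that follow are the fold change of the time course minus that of the separate cohort on the log2 scale. Acute-phase, serpin, and metallothionein genes were more negative in the time course, as *Orm1* (-2.08), *Orm2* (-5.68), *Lcn2* (-7.14), *Saa1* (-5.63), *Saa2* (-6.93), *Saa3* (-5.58), *Saa4* (-1.43), *Apcs* (-3.18), *Fgl1* (-2.30), *Fgb* (-1.02), *Serpina3n* (-2.17), *Mt1* (-4.60), and *Serpina10* (-1.27). Genes known from neutrophils and genes of the matrix and the interferon response were also more negative, as *S100a9* (-2.67), *Prtn3* (-3.21), *Spp1* (-3.24), *Zbp1* (-1.40), *Trim30a* (-1.15), and *Irgm1* (-0.80). So were the transporter, reductase, glutamine synthetase, and cathepsin genes *Slc13a3* (-2.19), *Cyb561* (-1.73), *Glul* (-0.85), and *Ctsc* (-0.90). Genes with a more positive change in the time course were *Csad* (1.56), *Ces1e* (1.32), *Abcg8* (1.07), *Lpin2* (1.27), *Asl* (0.97), *Gls2* (0.83), *Igfbp2* (1.22), *Ephx1* (0.91), *Rdh16f2* (0.95), and *Angptl6* (0.70). Time of collection, litter, and sequencing of the cohorts cannot be told apart from the cohort itself.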

How the results depend on the processing

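The number of genes that differed in level between 12 and 6 months (1379; 718 higher, 661 lower) was 1367 with DESeq2 size factors, 1508 with library totals alone (1072 higher and 436 lower), 1383 with a filter of 1 CPM, 1549 with DESeq2, 1436 with limma-voom, 1761 with a cosine and sine of 24 h in place of the block, and 1157 (602 higher, 555 lower) with no replicate block for ZT, which shared 1026 of the 1379 genes. It was 2184 (1117 higher, 1067 lower) with no filter on low counts, 2174 (1086 higher, 1088 lower) with all 18 libraries of the time course, 388 at an adjusted p under 0.01, and 250 with an absolute log2 fold change over 1.2, the threshold of the study. Leaving out each ZT in turn gave 597 to 1425 genes (277 to 715 higher, 320 to 710 lower), with the lowest number without ZT9. Normalization without the acute-phase and major urinary protein genes, chosen after the data were seen, gave 1381 genes. Of the 171 genes past the threshold that the naming rule gave, 0 changed direction under these alternatives. They were chosen by p, fold, or direction in the same libraries, which by itself leaves little room for a change of direction. No longer past the threshold were 23 with no replicate block, 9 to 44 on leaving out a ZT, 5 with library totals alone or the cosine and sine, and 1 or 0 under each other alternative. Of the gene lists, acute-phase genes had 29 to 32 lower members under the alternatives of normalization, filter, tool, block, and libraries, and major urinary proteins 10 to 16 (lists were not counted under the stricter thresholds). Of 51 counts of 1 to 5 genes higher or lower in a list, 37 moved by more than 1.5 times without at least 1 ZT (27 without ZT9), and of 18 counts of over 5 genes 12 did (12 without ZT9). The number of genes with a difference over the day (3) was 89 with no filter, 164 with DESeq2, 12 with all 18 libraries, 4 with library totals alone, and 0 to 6 on leaving out a ZT (0 in edgeR without ZT17, with 828 at an unadjusted p under 0.05). The log2 fold change of *mt-Tc*, which had not passed, ranged from -0.41 without ZT9 to 0.028 without ZT17, where its sign turned (adjusted p = 0.959 in edgeR). In the separate cohort, the number (3) was 5 with genotype and time of collection as separate terms, 57 at ZT21 alone, 229 with no filter, 263 with DESeq2, and 0 in edgeR with WT libraries alone (754 at an unadjusted p under 0.05), and 0 to 86 on leaving out 1 pair, with 0 without the light-phase KO pair and 86 without the ZT21 KO pair. The difference between cohorts (167) was 161 with DESeq2 size factors and 411 with DESeq2. The cause of these changes was not tested. With 1 library per age and ZT, the spread between mice is not measured on its own. Genes of a few counts, such as *Cidea* at 6 months, are limited by depth. With no filter on low counts, *Cidea* passed in edgeR (log2 fold change 3.36, SE 0.45, adjusted p = 1.84e-09). That fit held 24653 genes against 13046 in the main fit, so its p is not comparable with those given above. It rests on 0 to 5 reads of *Cidea* per 6-month library.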

Other observations

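A few named genes lay outside the groups described so far. Among genes of the peroxisome proliferator response, the pantetheinase *Vnn1* went from 13.9, 20.3, and 32.7 CPM at 6 months to 23.7, 38.3, and 42 CPM at 12 months, a log2 fold change of 0.82 (SE 0.11, adjusted p = 0.00156) in edgeR. *Etnppl*, the phosphoethanolamine lyase of periportal hepatocytes, went from 20.9, 36.8, and 63 CPM to 69.3, 77.9, and 135 CPM (log2 fold change 1.29, SE 0.20, adjusted p = 0.00357), and its 2-month libraries, at 92.6 to 152 CPM, lay above most libraries of both ages. The protease *Ctsc*, which activates granule proteases of leukocytes, went from 86.8, 102, and 118 CPM to 47.9, 56.1, and 82.1 CPM (log2 fold change -0.78, SE 0.11, adjusted p = 0.00241). The heart and muscle isoform of a cytochrome oxidase subunit, *Cox7a1*, was at 0.215, 0.344, and 0.817 CPM and then at 1.17, 1.37, and 1.62 CPM (log2 fold change 1.66, SE 0.32, adjusted p = 0.009). *Cox7a1* passed the filter on low counts through its 12-month libraries. *Slc13a2*, a dicarboxylate carrier, was higher at 12 months (log2 fold change 1.76, SE 0.27, adjusted p = 0.00321), in the opposite direction to the related carriers *Slc13a3* (-2.15) and *Slc13a5* (-2.99).

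In promoter windows of the acute-phase list, letters of the binding sites of 3 inflammatory factors were counted on both strands. A gene counted if any of its windows matched, whereas the shares are of single windows, so the 2 are not on the same footing. The C/EBP site TTNNGNAA was present in 19 of the 25 acute-phase genes with a window and in 36.8% of all windows. The NF-kB site, searched as GGGNNTTTCC or GGGNNTTCCC, was present in 3 of 25 (2.82% of all windows), and the STAT3 site TTCCNGGAA in 2 of 25 (0.914% of all windows).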
